A study of Mus musculus with 6 samples.

Results

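The 59 genes described here encode the lysosome: the subunits of its proton pump, the V-ATPase, its cathepsin proteases, and a set of membrane proteins, hydrolases and control factors. They are the protein-coding genes whose GENCODE symbol begins with Atp6v0 or Atp6v1 (23 genes), the lettered cathepsins Ctsa to Ctsz without Ctse (17 genes) and 19 listed genes, out of 49585 genes in the count tables. It also takes in Atp6v1fnb, which carries the name of its neighbour Atp6v1f and for which no role in the pump is claimed here.

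RNA was sequenced from mouse tumoroids, which are cultures of intestinal adenoma cells of C57BL/6 mice grown in Matrigel. The 3 knock-out libraries came from cultures that were APC min/+ with Villin-Cre and IKKa FL/FL, and the 3 wild-type libraries from cultures that were APC min/+ with Villin-Cre and IKKa +/+. Both groups are thus labelled heterozygous for the Min allele of Apc, and whether the adenoma cells kept the other allele was not tested. Both carry a Cre recombinase under the promoter of Villin, a gene of the intestinal epithelium. Both were grown with Noggin, R-spondin, EGF, basic FGF and a ROCK inhibitor. The labels give no ages and call the libraries of a group biological replicates without saying whether they came from separate mice, so the p-values rest on the variation among these libraries alone and part of it may be technical. The comparison asks how transcript levels differ between tumour cells labelled knock-out and wild type for IKKa, the kinase encoded by Chuk.

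Lysosomes digest material that reaches them by endocytosis or autophagy. The V-ATPase acidifies their lumen: its V1 sector hydrolyses ATP in the cytosol and turns a rotor in the membrane-embedded V0 sector, which moves the protons. Acid activates the cathepsins and the glycosidases, and many of these genes are switched on together by TFEB, TFE3 and MITF, related helix-loop-helix factors that bind an E-box with the letters CACGTG at its centre, called the CLEAR element. The kinase mTORC1, itself recruited to the lysosome surface, keeps TFEB and TFE3 in the cytosol when nutrients are plentiful. In the gut, lysosomes are prominent in absorptive enterocytes and in macrophages.

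Library totals ran from 20749747 to 31875723 counts. Chuk had 101, 106 and 95.8 CPM (counts scaled by TMM and by library size) in the wild-type and 28.9, 24.4 and 34.9 CPM in the knock-out libraries (adjusted p = 8.6e-08). Transcript thus remained in the knock-out, and the tables, counted by whole gene, give no value for the deleted exons alone. Knock-out replicate 2 stood apart from its fellows, with a chi-square per degree of freedom of 36.4 and 37.0 against them and 5.64 between the other two. Between the wild-type libraries the same value was 12.3, 16.3 and 20.0, so knock-out replicates 1 and 3 were closer to each other than any wild-type pair. Xist had 95406 counts in the wild-type libraries and 6 in the knock-out ones. Genotype thus cannot be told apart from a difference in sex or in Xist alone, and which of these was present was not tested. This touches the X-linked members Lamp2, Gla and Tfe3. X-linked genes averaging 5 CPM or more had a median log2 fold change of -0.09, and 29.1% of them were higher in the knock-out. Genes of chromosome 5, which holds the members Atp6v0a2 and Gusb, had a median log2 fold change of 0.40, against -0.03 for the other autosomes, and mitochondrial transcripts took 6.18 to 7.58% of wild-type and 2.15 to 3.46% of knock-out counts. Of 10 epithelial markers 3 rose and 6 fell, shares of 30% and 60% against 30.4% and 27% of all genes tested. The summed level of these markers was 8375 to 9020 CPM in the wild type and 10546 to 12412 CPM in the knock-out. Krt19 was at 1475 ± 161 and 3970 ± 557 CPM, and Krt8 and Krt18 rose 1.35-fold and 1.32-fold. Epcam was at 915 ± 30.6 CPM in the wild type and 412 ± 12.9 CPM in the knock-out (mean ± SD, n = 3 each, as in all values below), the intestinal factor Cdx2 at 193 ± 10.6 and 20.6 ± 1.30 CPM, and Cdx1 had 495 counts in the wild type and 0 in every knock-out library.

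Of the 59 genes, 46 had enough counts to be tested, 23 rose in the knock-out, 10 fell and 13 did not pass an adjusted p of 0.05. Over all 13759 genes tested, 57.4% were called, 30.4% higher and 27% lower, so that 50.0% of the tested members rose where the table as a whole gave 30.4%, and 21.7% fell. The median log2 fold change of the tested members was 0.24, against 0.00 for all genes tested. Because a gene such as Ctss passes the filter only through the genotype in which it is present, the count was repeated for genes averaging 20 CPM or more across the 6 libraries, which gave 22 higher and 6 lower of 37 members, against 31.1% and 30.1% of 8067 genes. Changes were mostly small. At least 2-fold rises were found for 6 members, where 15.2% of all genes rose that far, and at least 2-fold falls for 5, where 9.83% did. All 3 knock-out libraries lay above all 3 wild-type libraries for 24 tested members and below them for 10, 34 in all, where 32.7%, 30.4% and 63.1% of all genes did so. Together the 59 genes took 0.482 to 0.524% of wild-type counts and 0.651 to 0.669% of knock-out counts, and these ranges did not overlap. In bulk RNA a change in the number of cells of a kind and a change in transcripts per cell cannot be told apart.

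**Figure D1:**
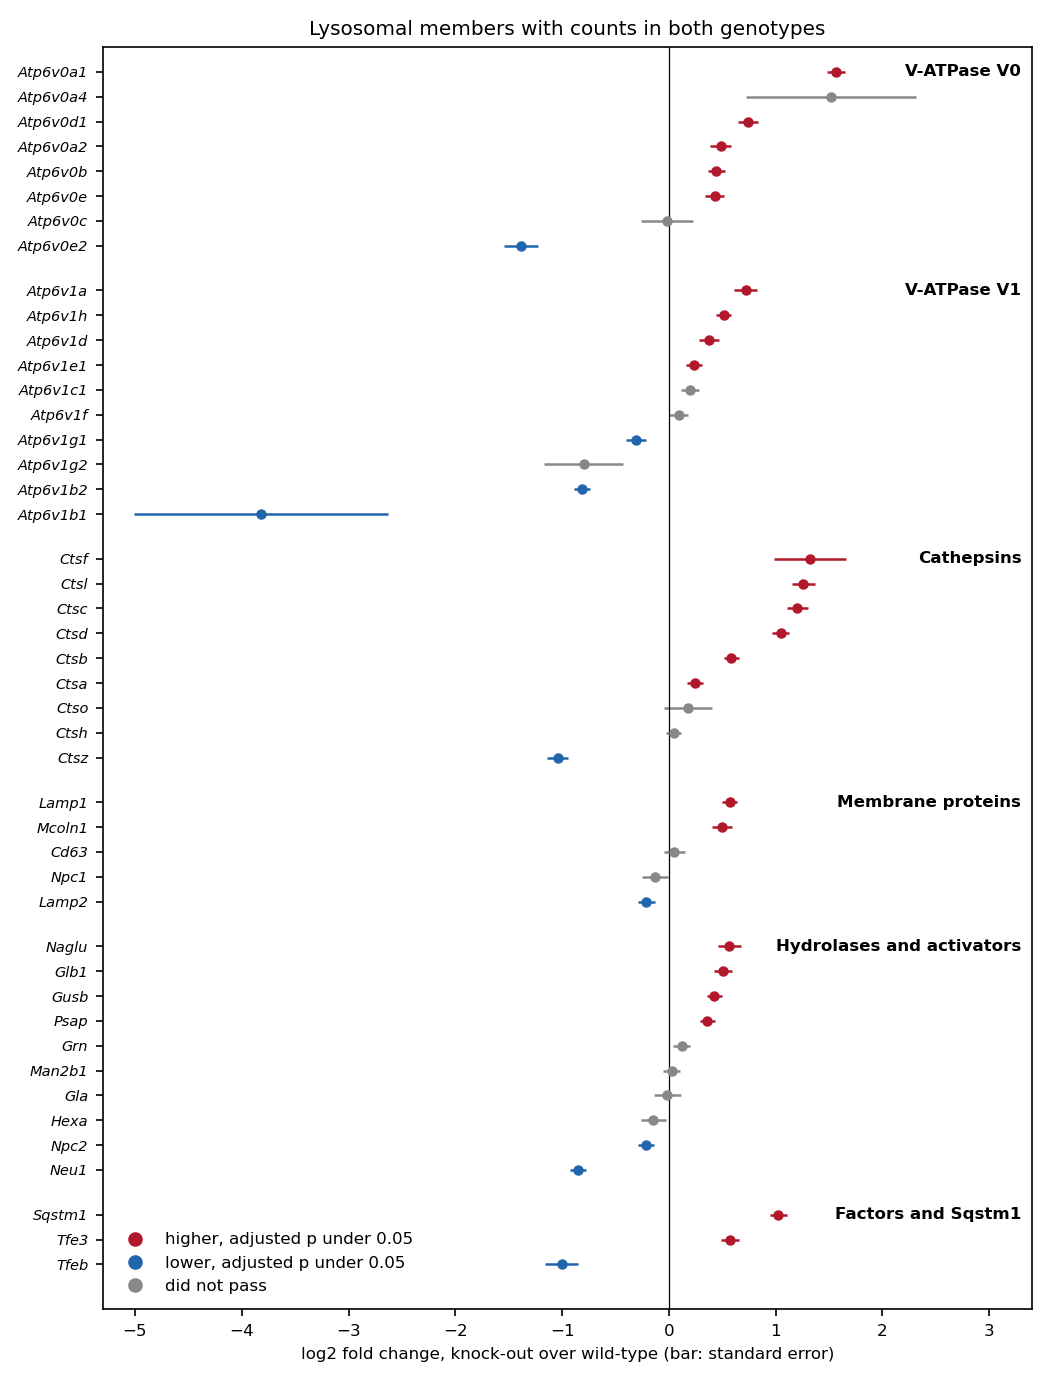
Log2 fold change of knock-out over wild-type (bars, standard error of the fit over 3 libraries per genotype) for the 45 tested members with counts in both genotypes, by role. Red points passed an adjusted p of 0.05 upward, blue points downward, and grey points did not pass. Of the called genes, Atp6v0a1, Ctsf, Ctsl, Ctsc, Ctsd and Sqstm1 lie beyond a log2 value of 1, and Atp6v1b1, Atp6v0e2, Ctsz and Tfeb lie below -1.

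Promoter letters are shown first, as a description. Among the members the box CACGTG was found mainly in those that rose, but over all tested genes it did not go with a rise. RefSeq promoters on GRCm38.p6, from 250 bases before to 50 bases after each start site, were at hand for 49 of the 59 members. They were searched for CACGTG, which reads the same on both strands. Of the 20 members that rose and had a promoter, 12 held the box: Atp6v0b, Atp6v0d1, Atp6v0e, Atp6v1a, Ctsa, Ctsd, Ctsf, Ctsl, Glb1, Lamp1, Mcoln1 and Naglu. None of the 8 that fell did, which were Atp6v0e2, Atp6v1b1, Ctss, Ctsz, Lamp2, Neu1, Npc2 and Tfeb. Among the 10 that did not pass, Gla alone held it, and among the 11 that were not tested 0 did. Over all 27025 genes with a promoter 8.09% held the box, and over the 10195 of them that were tested 11.7% did. Because CLEAR factors act on many of these genes, as said above, a higher share of boxes than over all genes does not bear on the knock-out. The longer form TCACGTG, which contains the box and was searched on both strands, was found in 10 of the 20, 0 of the 8 and 1 of the 10, against 6.87% of the tested genes, and the full CLEAR palindrome built around it in 0 of the 49, against 0.775%.

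The stretches below, of members that rose, show how the boxes (in capitals) sit upstream of the start site, and each was placed to hold no base that GENCODE annotates as UTR. Lamp1 held 4 boxes within the 120 bases before its start. Atp6v0b held 2, Glb1 and Ctsf 1 each, and of the 2 boxes of Mcoln1 the outer one is shown. In Atp6v1a the box begins 131 bases before the start. Coordinates are those of GRCm38.p6, and letters run 5′ to 3′ along the gene.
Lamp1 (chr8:13159041-13159160, plus strand): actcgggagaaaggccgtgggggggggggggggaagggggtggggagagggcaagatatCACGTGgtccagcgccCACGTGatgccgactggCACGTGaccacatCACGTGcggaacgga
Mcoln1 (chr8:3500334-3500453, plus strand): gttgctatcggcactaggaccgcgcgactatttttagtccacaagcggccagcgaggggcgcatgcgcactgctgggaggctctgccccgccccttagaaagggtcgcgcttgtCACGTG
Atp6v0b (chr4:117887334-117887453, minus strand): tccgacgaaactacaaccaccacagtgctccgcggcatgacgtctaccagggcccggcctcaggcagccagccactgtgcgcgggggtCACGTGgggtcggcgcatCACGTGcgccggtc
Glb1 (chr9:114400953-114401072, plus strand): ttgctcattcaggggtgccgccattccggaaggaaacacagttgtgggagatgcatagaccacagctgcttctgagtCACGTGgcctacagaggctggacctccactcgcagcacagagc
Atp6v1a (chr16:44139340-44139459, minus strand): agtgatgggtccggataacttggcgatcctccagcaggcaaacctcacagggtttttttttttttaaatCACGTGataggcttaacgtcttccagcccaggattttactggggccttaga
Ctsf (chr19:4855010-4855129, plus strand): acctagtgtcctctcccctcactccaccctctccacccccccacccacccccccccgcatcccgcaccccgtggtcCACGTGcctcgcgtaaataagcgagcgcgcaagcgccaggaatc

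The 120 bases before the start of 3 members that fell have no box. The stretches above were picked for their boxes, and members that rose without one, named below, are not printed.
Atp6v0e2 (chr6:48537449-48537568, plus strand): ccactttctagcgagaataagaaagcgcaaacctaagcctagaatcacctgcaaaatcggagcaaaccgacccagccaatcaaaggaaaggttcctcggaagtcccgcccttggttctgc
Ctsz (chr2:174439040-174439159, minus strand): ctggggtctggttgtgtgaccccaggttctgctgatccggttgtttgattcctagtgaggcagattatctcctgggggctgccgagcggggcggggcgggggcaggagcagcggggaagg
Neu1 (chr17:34931133-34931252, plus strand): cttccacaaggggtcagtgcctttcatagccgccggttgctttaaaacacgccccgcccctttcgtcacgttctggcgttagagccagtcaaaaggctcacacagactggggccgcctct
Over all tested genes the box did not go with a rise. Among all 1188 tested genes with a box, 31.2% were higher and 27.9% lower in the knock-out, and among the 9007 without it 31.9% and 27.9%. With the members left out, 30.6% of 1175 genes with the box were higher and 28.2% lower. Members without a box also rose: Atp6v0a1, Atp6v1d, Atp6v1e1, Ctsc, Gusb, Psap, Sqstm1 and Tfe3 have none in this window. A match of letters does not show that a factor binds there, and a missing match speaks only for this window. No promoter was matched for Atp6v0a2, Atp6v0d2, Atp6v1b2, Atp6v1c1, Atp6v1g1, Atp6v1h, Ctsb, Ctsh, Ctsw and Npc1.

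In the V0 sector, which carries the proton channel, 5 of 8 tested genes rose and 1 fell. These are shares of 62.5% and 12.5%, against 30.4% and 27% of all genes tested. Atp6v0a1 rose most of the pump genes that passed. It encodes an isoform of the a subunit, the stator that lines the proton path and helps to direct the pump to a compartment (chromosome 11, 101009452 to 101063719, GRCm38). Its level was 44.4, 40.8 and 45.4 CPM in the wild-type libraries and 131, 123 and 132 CPM in the knock-out. The groups were far apart, a 2.96-fold rise (log2 1.57, SE 0.08, adjusted p = 9.5e-09). Atp6v0d1 (chromosome 8, 105524465 to 105566047), the ubiquitous d subunit that couples the rotor to the ring of proteolipids, had 35.3, 36.7 and 37.1 CPM against 65.9, 55.7 and 60.2 CPM in the knock-out. Its rise was 1.67-fold (log2 0.74, SE 0.09, adjusted p = 3e-05), again without overlap. Smaller rises were seen for Atp6v0a2, an isoform of the a subunit found in the Golgi and endosomes (log2 0.49, SE 0.10, adjusted p = 0.0012), for Atp6v0b, a proteolipid of the ring (1.36-fold, adjusted p = 3.8e-04), and for Atp6v0e (1.35-fold, adjusted p = 0.0013). Atp6v0a2 lies on chromosome 5, and the part of that chromosome's shift in its rise was not tested.

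The small e subunit changed in opposite directions in its isoforms. Atp6v0e2 (chromosome 6, 48537615 to 48541801) had 17.3, 18.3 and 20.1 CPM in the wild type and 8.06, 7.49 and 5.84 CPM in the knock-out. The groups did not overlap, and the fall was 2.61-fold (log2 -1.38, SE 0.16, adjusted p = 1.1e-05). Counted per kilobase of exon, Atp6v0e2 made up 25.0 ± 0.820% of the e transcripts in the wild type and 8.67 ± 1.38% in the knock-out. The a subunit shifted likewise. Atp6v0a1 held 20.0 ± 1.69% of the a transcripts in the wild type and 39.5 ± 1.05% in the knock-out, while Tcirg1, which encodes the a3 isoform of lysosomes and of the osteoclast border and is not among the 59, went from 34.6 ± 1.32 to 18.1 ± 2.97%. The share of Atp6v0a2 was 45.2 ± 3.12% and 42.0 ± 2.80%, with overlapping libraries. In its own level Tcirg1 fell 1.28-fold (adjusted p = 0.015). With 3 libraries against 3 an exact permutation test of a share cannot go below p = 0.1, so these shares are given as descriptions.

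Atp6v0a4, the a isoform of kidney and inner ear, had at most 1.12 CPM in any library and did not pass (adjusted p = 0.097, and 0.033 without knock-out replicate 1). Atp6v0c, which encodes the main proteolipid of the ring, was listed at only 3.47 to 6.11 CPM, with a log2 fold change of -0.02 (adjusted p = 0.96). Processed pseudogenes of Atp6v0c are annotated, of which Atp6v0c-ps2 had 17 counts in all, and how the authors counted reads that map to several places is not given in the sources used here, so the level of Atp6v0c is uncertain. Atp6v0d2, the d isoform of osteoclasts and kidney, had no count in any library, which allows up to 3 counts in a genotype's pooled libraries, or 0.0388 CPM for wild type and 0.0336 CPM for knock-out.

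**Figure D2:**
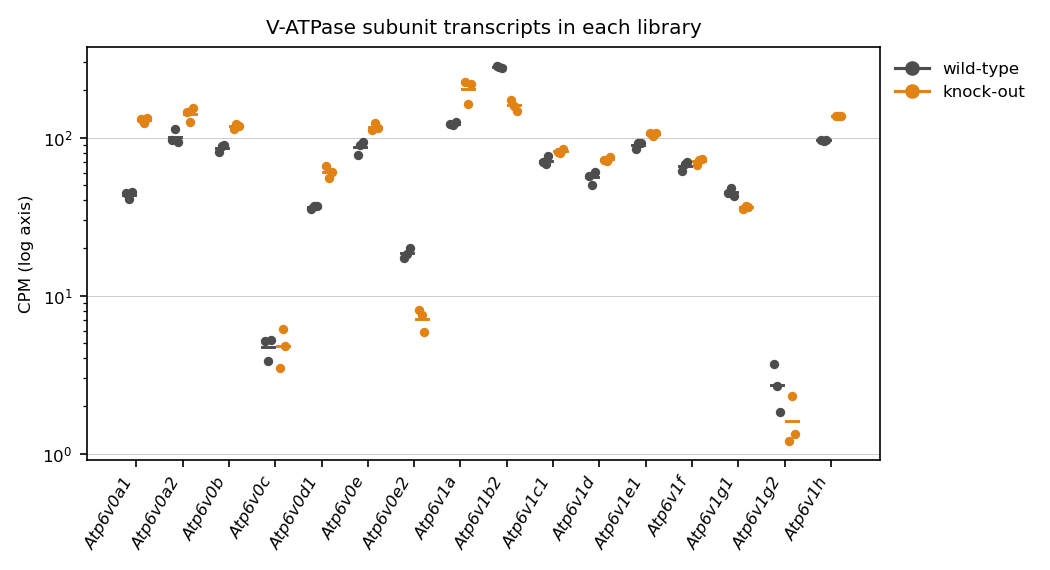
CPM (log axis) in each library for the 16 V-ATPase genes that average 2 CPM or more, wild type in grey and knock-out in orange, with horizontal lines at the means of 3 libraries. Atp6v0a1 and Atp6v1a move up and Atp6v1b2 and Atp6v0e2 move down without overlap, while the libraries of Atp6v0c, Atp6v1f and Atp6v1g2 overlap.

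In the V1 sector 4 of 10 tested genes rose and 3 fell, shares of 40% and 30% against 30.4% and 27% of all genes tested. The partners of the catalytic head went opposite ways. The head is a ring of alternating A and B subunits. Atp6v1a, the catalytic A subunit (chromosome 16, 44085402 to 44139705), had 122, 121 and 126 CPM in the wild type and 223, 162 and 220 CPM in the knock-out. Its rise was 1.65-fold (log2 0.72, SE 0.11, adjusted p = 1.4e-04). The lowest knock-out value is that of replicate 2, the library that stood apart, and without it the log2 fold change was 0.83. Atp6v1b2, the B subunit of most tissues (chromosome 8, 69088646 to 69113711), went from 285, 279 and 277 CPM down to 173, 159 and 147 CPM, a 1.76-fold fall (log2 -0.81, SE 0.08, adjusted p = 2.15e-06). Per kilobase of exon the A transcript was 27.7 ± 0.633% of the sum of both in the wild type and 52.4 ± 4.78% in the knock-out, with no overlap.

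Atp6v1b1, the B isoform of kidney and other acid-secreting epithelia, was near the limit of detection. It had 28, 21 and 41 counts in the wild-type libraries and 7, 0 and 0 in the knock-out, a fall past the threshold (log2 -3.82, SE 1.19, adjusted p = 0.0011). The fitted size of that fall depends on single libraries: it was -7.98 without knock-out replicate 1, which holds all 7 counts, and -3.23 without knock-out replicate 3, and it was -4.80 with limma voom. Atp6v1h, the regulatory H subunit (chromosome 1, 5070018 to 5162529), was the tightest of the pump genes, with 96.0, 94.9 and 96.6 CPM in the wild type against 137, 136 and 138 CPM in the knock-out. It rose 1.43-fold (log2 0.51, SE 0.07, adjusted p = 5.5e-05).

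Of the stalk subunits, Atp6v1d, the rotor shaft, rose 1.30-fold (adjusted p = 0.0034). Atp6v1e1, a peripheral stalk subunit, rose 1.18-fold (adjusted p = 0.020), a call that was lost without knock-out replicate 1 (0.072), knock-out replicate 3 (0.066) or wild-type replicate 1 (0.099), with upper-quartile scaling (0.062) and without a filter (0.073). Its stalk partner Atp6v1g1 fell 1.24-fold (adjusted p = 0.013), and that call was lost without knock-out replicate 1 (0.052) or wild-type replicate 2 (0.052). Atp6v1c1, Atp6v1f and Atp6v1g2 did not pass, at log2 fold changes of 0.20, 0.09 and -0.80. Of these, Atp6v1c1 passed without wild-type replicate 3 (adjusted p = 0.042), and Atp6v1g2 passed without knock-out replicate 2 (0.017), without wild-type replicate 3 (0.038) or without a filter (0.035). Atp6v1e2 and Atp6v1g3 were at 0 in every library. Atp6v1c2, with 34 wild-type and 8 knock-out counts, and Atp6v1fnb, with 2 and 1, were too low to test.

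**Figure D3:**
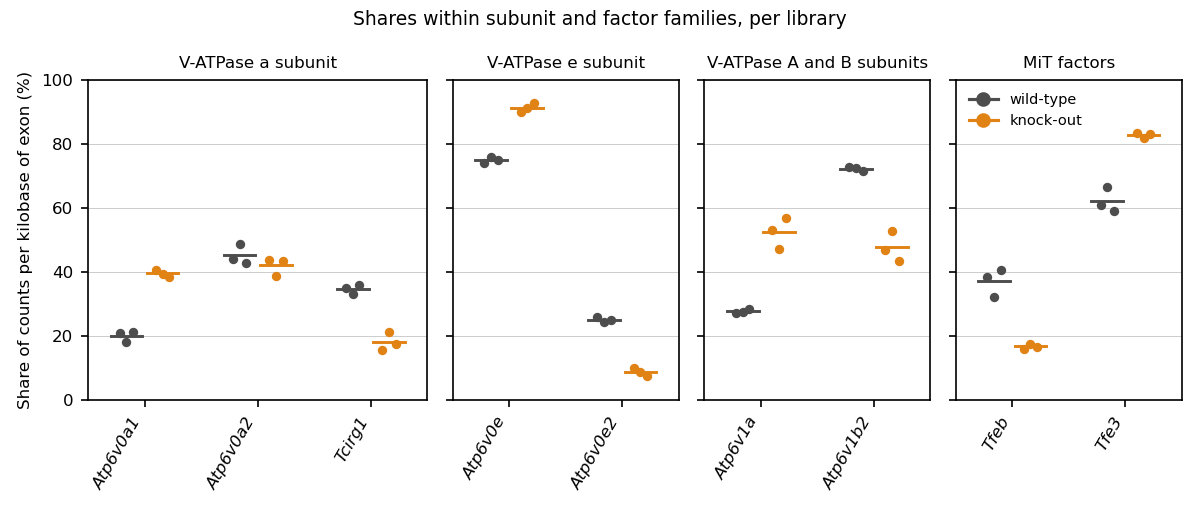
Share of counts per kilobase of exon (%) that each transcript takes within its family, per library, with wild type in grey, knock-out in orange and lines at the means. The families are the a subunit, the e subunit, the A and B subunits, and the factors Tfeb and Tfe3; the minor members Atp6v0a4 and Mitf are included in the sums but not drawn. Atp6v1a moves from 27.7 to 52.4% and Tfeb from 37.0 to 16.7%.

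Cathepsins are the lysosomal proteases, and 6 of the 10 tested genes rose while 2 fell. The shares are 60% and 20%, against 30.4% and 27% of all genes tested. Ctsd, the aspartic cathepsin D (chromosome 7, 142375911 to 142388038), had 353, 390 and 406 CPM in the wild type and 749, 852 and 769 CPM in the knock-out. This 2.06-fold rise (log2 1.05, SE 0.08, adjusted p = 3.6e-07) made it the most abundant of the 59 transcripts per kilobase in the knock-out. There it had 336 ± 23.3 CPM per kilobase, against 299 ± 6.45 for Lamp1, whereas Lamp1 led in the wild type with 201 ± 10.4, against 163 ± 11.6 for Ctsd. Ctsl, the cysteine protease cathepsin L (chromosome 13, 64359337 to 64370890), had 172, 201 and 199 CPM against 485, 376 and 508 CPM. It rose 2.39-fold (log2 1.26, SE 0.11, adjusted p = 1.2e-06), with its lowest knock-out value in replicate 2, and its log2 fold change was 1.35 without that library.

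Ctsc, cathepsin C or dipeptidyl peptidase 1, which activates granule serine proteases (chromosome 7, 88278085 to 88310888), had 48.9, 55.9 and 46.0 CPM in the wild type. Its knock-out values of 120, 120 and 107 CPM all lay above them, a 2.30-fold rise (SE 0.09 on the log2 scale, adjusted p = 3.9e-07). Ctsf, cathepsin F, was scarce, with 1.81, 5.38 and 2.56 CPM against 5.69, 8.84 and 8.56 CPM, and the highest wild-type value came close to the lowest knock-out value (2.50-fold, log2 1.32, SE 0.34, adjusted p = 0.0042). Ctsb, cathepsin B, rose by 0.58 on the log2 scale from 335 ± 19.8 to 503 ± 11.6 CPM (adjusted p = 2.1e-05). Its exons overlap 774 bases of Fdft1 on the other strand, and the strand setting of the counting is not given in the sources used here. Ctsa, the serine carboxypeptidase that also protects Neu1 and Glb1, rose 1.19-fold (adjusted p = 0.019), and this call was lost without wild-type replicate 1 (0.092) or 2 (0.068) and with upper-quartile scaling (0.066). Ctsh, an aminopeptidase, had 191, 205 and 211 CPM against 208, 210 and 208 CPM (adjusted p = 0.62) and Ctso 7.06 ± 2.41 and 8.21 ± 0.664 CPM (adjusted p = 0.53).

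**Figure D4:**
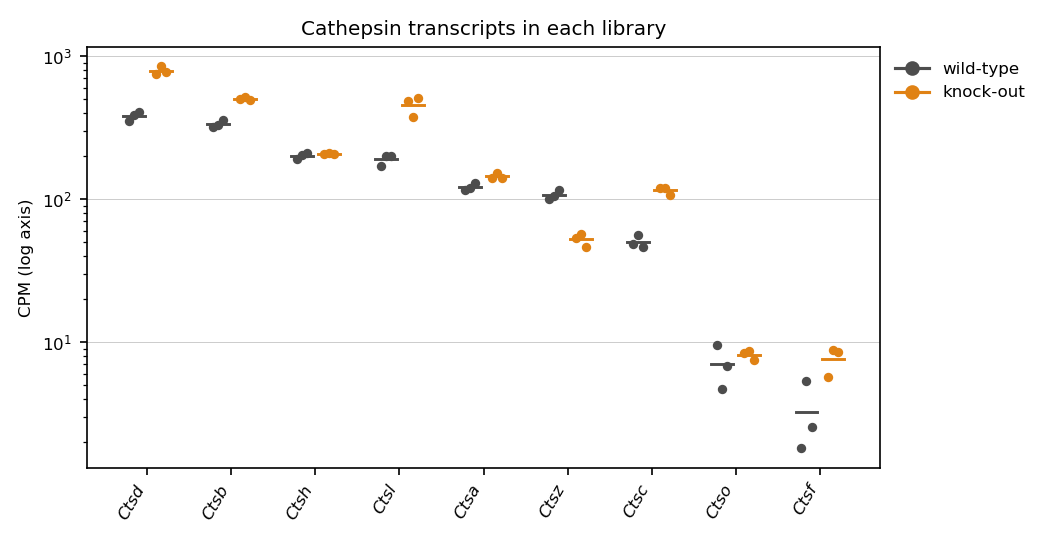
CPM (log axis) in each library for the 9 cathepsin genes that average 2 CPM or more, ordered by their wild-type mean, with wild type in grey, knock-out in orange and lines at the means. Ctsd, Ctsl, Ctsc and Ctsf lie more than 2-fold higher in the knock-out, Ctsz lies lower, and Ctsh and Ctso overlap.

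Ctsz went the other way. This gene of cathepsin Z, a carboxypeptidase (chromosome 2, 174427493 to 174439039), had 101, 106 and 116 CPM in the wild type and 54.0, 56.8 and 46.2 CPM in the knock-out, a 2.06-fold fall (log2 -1.04, SE 0.10, adjusted p = 2e-06). Of the cathepsin counts per kilobase, Ctsz held 18.4 ± 0.436% in the wild type and 5.80 ± 0.520% in the knock-out. The share of Ctsd was 40.2 ± 0.481% and 53.6 ± 2.04%, and that of Ctsl 7.26 ± 0.315% and 11.3 ± 2.04%. For Ctsb the shares of 13.7 ± 0.373% and 13.3 ± 0.146% overlapped. Ctss, cathepsin S, the protease of antigen-presenting cells (chromosome 3, 95526786 to 95556403), had 36, 31 and 41 counts in the wild type and 0 in each knock-out library. Against a floor of 3 pooled counts the level was at least 42.0-fold lower (adjusted p = 1.2e-04).

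Cathepsins of other cell types were at or near 0. Ctsg of neutrophils, and Ctsj and Ctsr of the placenta, had no count. Ctsk of osteoclasts had 9 wild-type and 8 knock-out counts, Ctsw of cytotoxic lymphocytes 0 and 13, and the placental genes Ctsm 0 and 10 and Ctsq 2 and 0. All 10 markers of T and NK cells were at 0. Of 14 markers of macrophages and dendritic cells, 5 were at 0, among them Adgre1, C1qa and Tyrobp, and the list summed to 37.9 to 42.9 CPM in the wild type and 114 to 134 CPM in the knock-out, of which Cd14, also made by epithelium, was the main part. Of the 5 tested markers of this list 4 rose and 0 fell, shares of 80% and 0% against 30.4% and 27% of all genes tested. Csf1r, the receptor of the macrophage growth factor, was at 0.605 ± 0.724 CPM in the wild type and 10.9 ± 0.361 CPM in the knock-out (15.9-fold), Mrc1 rose 4.02-fold, and Ptprc, the leukocyte antigen CD45, had 2 and 39 counts. Lyz2, of the same list, had 15, 0 and 4 wild-type counts and none in the knock-out. Of 11 markers of neutrophils and mast cells 6 were at 0, with sums of 5.24 to 9.30 CPM and 9.27 to 12.5 CPM, and of 12 markers of fibroblasts and osteoclasts 8 were at 0, where Acp5 made up most of a sum of 36.7 to 46.1 CPM in the wild type and 4.46 to 5.62 CPM in the knock-out. For endothelium 3 of 7 were at 0, with 10.1 to 15.4 CPM and 5.39 to 12.0 CPM. These sums hide opposite changes: in the neutrophil, fibroblast and endothelium lists alike, 1 tested marker rose and 1 fell. In that order, log2 fold changes ran from -8.29 to 6.81, from -3.24 to 4.45 and from -5.40 to 4.10. The part of such cells in the changes of the 59 genes was not tested.

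Among the membrane proteins 2 of 5 rose and 1 fell, so that 60% were called, near the 57.4% of all genes tested. Lamp1, the major glycoprotein that coats the inner face of the lysosomal membrane (chromosome 8, 13159161 to 13175338), had 508, 547 and 562 CPM in the wild type and 811, 779 and 807 CPM in the knock-out. It rose 1.48-fold (log2 0.57, SE 0.07, adjusted p = 2.3e-05). Its relative Lamp2 (chromosome X, 38401357 to 38456454), whose A isoform is the receptor of chaperone-mediated autophagy, had 233, 227 and 239 CPM against 218, 184 and 203 CPM. All knock-out values were lower, but the fall of 1.16-fold was slight (log2 -0.21, SE 0.08, adjusted p = 0.036), and the call was lost without knock-out replicate 3 (0.087) or without wild-type replicate 1 (0.088), 2 (0.066) or 3 (0.107). Mcoln1, the calcium channel mucolipin 1 through which lysosomes signal to TFEB (chromosome 8, 3500457 to 3515232), had 33.3, 30.4 and 35.0 CPM against 47.3, 45.4 and 47.3 CPM, a 1.41-fold rise (log2 0.50, SE 0.09, adjusted p = 6.6e-04). Cd63, a tetraspanin of late endosomes, had 69.2 ± 8.61 and 71.8 ± 4.61 CPM, and Npc1, the cholesterol exporter, 48.3 ± 2.48 and 43.9 ± 7.65 CPM, and neither passed (adjusted p = 0.69 and 0.38).

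Of the 10 soluble hydrolases and activators 4 rose and 2 fell, which is again 60% called against 57.4% of all genes tested. Neu1, the sialidase that trims sialic acid from glycoproteins (chromosome 17, 34931253 to 34935953), had the smallest p of the group and fell. Its level was 151, 166 and 164 CPM in the wild type and 88.4, 91.7 and 87.4 CPM in the knock-out (1.80-fold, log2 -0.85, SE 0.08, adjusted p = 1.1e-06). Glb1, the acid beta-galactosidase that works in a complex with Neu1 and Ctsa (chromosome 9, 114401076 to 114474898), rose instead, from 45.7, 45.9 and 50.5 CPM to 66.3, 67.0 and 69.2 CPM (1.42-fold, log2 0.51, SE 0.08, adjusted p = 2.6e-04). Within that complex, then, the transcript of the sialidase was lower in all 3 knock-out libraries and those of its partners were higher. Gusb, the beta-glucuronidase (chromosome 5, 129989011 to 130003049), had 182, 176 and 192 CPM against 245, 239 and 254 CPM (1.34-fold, log2 0.43, SE 0.07, adjusted p = 2.6e-04). Gusb lies on the chromosome whose genes as a whole were shifted upward, and the part of this in its rise was not tested.

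Naglu, a glucosaminidase of heparan sulphate breakdown, rose 1.48-fold (adjusted p = 7.5e-04). Psap, the precursor of the saposins that present sphingolipids to their hydrolases, rose 1.28-fold from 390 ± 17.0 to 500 ± 12.9 CPM (adjusted p = 7.4e-04). Npc2, which hands cholesterol to Npc1, fell 1.16-fold (adjusted p = 0.023), a call lost without knock-out replicate 1 (0.087) or 3 (0.083) and without wild-type replicate 1 (0.054) or 3 (0.108). Hexa, Gla, Man2b1 and the progranulin gene Grn did not pass, with log2 fold changes of -0.14, -0.01, 0.02 and 0.12. The interval that their standard errors of 0.11, 0.13, 0.08 and 0.08 give leaves room for small changes in either direction.

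The transcription factors of the CLEAR network diverged. Tfeb (chromosome 17, 47737030 to 47792419) had 15.3, 13.3 and 17.0 CPM in the wild type and 7.42, 7.90 and 7.52 CPM in the knock-out, without overlap. Its fall was 2.01-fold (SE 0.15 on the log2 scale, adjusted p = 1.2e-04). Tfe3 (chromosome X, 7762560 to 7775202) had 39.5, 44.8 and 40.5 CPM against 63.6, 60.1 and 61.4 CPM and rose 1.49-fold (log2 0.57, SE 0.09, adjusted p = 1.5e-04). Tfe3 was the more abundant per kilobase in both genotypes, and its share of the family went from 62.2 ± 3.92% to 82.8 ± 0.960%, while that of Tfeb went from 37.0 ± 4.26% to 16.7 ± 0.812%. Mitf had 2 to 11 counts per library and was too low to test. Transcript levels say nothing of where the proteins lie in the cell, which is how these factors are mainly controlled.

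Sqstm1, the gene of p62, which carries ubiquitin-marked cargo into autophagosomes and is degraded with it (chromosome 11, 50199366 to 50210827), had 112, 130 and 126 CPM in the wild type and 252, 236 and 258 CPM in the knock-out. The rise was 2.03-fold (log2 1.02, SE 0.08, adjusted p = 3.8e-07), and the groups lay far apart. Its exons share 580 bases with Mrnip on the other strand, a gene with 552 counts in all libraries together.

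The other lysosomal hydrolases and activators, a list of 39 genes outside the 59, had 24 higher and 6 lower and a median log2 fold change of 0.43. Those with the smallest p were Acp5, an acid phosphatase, which fell 9.46-fold to 4.28 ± 0.476 CPM, Man2b2, a mannosidase, which rose 3.65-fold to 113 ± 6.43 CPM, and Gm2a, the activator of GM2 ganglioside breakdown, which rose 3.45-fold to 93.7 ± 5.57 CPM (adjusted p = 3.5e-09, 4.6e-09 and 6.2e-09). Man2b2 lies on chromosome 5. Of 25 tested genes for other lysosomal membrane proteins 8 rose and 4 fell, led by Abca2, a lipid transporter, 4.16-fold higher at 250 ± 24.5 CPM, then Litaf, 1.97-fold, and the nucleoside transporter Slc29a3, 2.10-fold. Of 16 genes that sort enzymes to the lysosome 2 rose and 5 fell. The share that fell, 31.2%, was near the 27% of all genes tested. Sort1, the receptor sortilin, fell 5.03-fold from 270 ± 4.89 to 53.7 ± 6.12 CPM (adjusted p = 6.8e-10), and Igf2r, the mannose 6-phosphate receptor that carries most hydrolases, fell 1.94-fold from 324 ± 9.48 to 167 ± 24.5 CPM (adjusted p = 5.1e-06). Ap1m2, a subunit of the epithelial clathrin adaptor, fell 1.22-fold (adjusted p = 0.0038).

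The 3 tested inhibitors of the cysteine cathepsins rose, where 30.4% of all genes tested did, and 3 genes are too few to speak for the family. Of 13 cystatin and stefin genes 8 were at 0 in every library and 2 more were too low to test. Cstb, the cytosolic inhibitor stefin B, went from 63.8 ± 2.70 to 140 ± 4.72 CPM (2.19-fold, adjusted p = 1.1e-07), Cst3, the secreted cystatin C, rose 1.26-fold (adjusted p = 0.0059), and Csta1 rose 2.86-fold to 1.93 ± 0.610 CPM (adjusted p = 0.0068). Among 15 tested accessory and assembly genes of the V-ATPase 4 rose and 3 fell. The X-linked Atp6ap1, an accessory subunit, rose 1.77-fold to 226 ± 14.5 CPM (adjusted p = 1.9e-06), Tmem199, an assembly factor, 1.46-fold and Oxr1 1.44-fold.

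Genes around mTORC1 and the nutrient control of TFEB were mixed, with 10 higher and 4 lower of 29 and a median log2 fold change of 0.05. Sesn1 fell 2.88-fold (adjusted p = 3.4e-06) and its relative Sesn2 rose 1.71-fold (adjusted p = 3.4e-05), both being inhibitors of mTORC1 in amino acid shortage. Rheb, the GTPase that activates mTORC1 and a gene of chromosome 5, rose 1.57-fold (adjusted p = 1.2e-05). Of 42 autophagy genes 18 rose and 6 fell, with a median of 0.19. The leading ones were Wipi2, also on chromosome 5, which marks the nascent autophagosome (1.86-fold, adjusted p = 2.9e-07), Optn, a cargo receptor (2.03-fold, adjusted p = 1e-06), and Ulk2, an initiating kinase (1.78-fold, adjusted p = 5.6e-05). Against a background of 30.4% higher and 27% lower, the shares of these lists that rose were 61.5% for the other hydrolases, 42.9% for autophagy, 34.5% for the mTORC1 list, 32% for the other membrane proteins, 26.7% for the accessory genes and 12.5% for sorting. In the same order, the shares that fell were 15.4%, 14.3%, 13.8%, 16%, 20% and 31.2%.

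**Figure D5:**
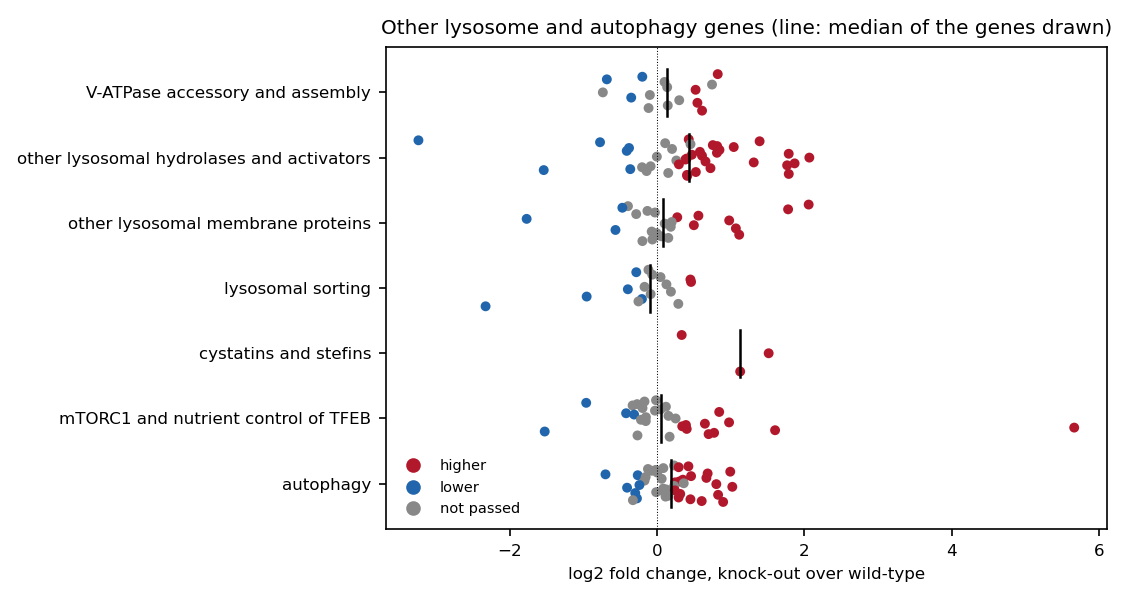
Log2 fold change of knock-out over wild-type for each tested gene of 7 related lists that had counts in both genotypes, red where it passed upward, blue where it passed downward and grey where it did not pass, with a black line at the median of the genes drawn. The hydrolases lie mostly to the right, at a median of 0.43, and the sorting genes extend to the left as far as Sort1 at -2.33.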

How the data were processed

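Tables of whole-number counts per Ensembl gene, as the authors deposited them, were used for 3 knock-out and 3 wild-type libraries. Per the labels' protocols the libraries were stranded and polyA-selected, and the aligner was STAR and the genome GRCm38, as the submitters' processing notes list them. Not given in the sources used here are the STAR version, the counting program and its handling of strand and multi-mapping. Symbols, coordinates and exon lengths came from GENCODE M21 (GRCm38), which named 49326 of 49585 identifiers, and promoters from RefSeq (GRCm38.p6).

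All genes were fitted together in edgeR 4.0.16 (R 4.3.3) by quasi-likelihood, with a term for genotype, TMM scaling and filterByExpr (minimum count 10, minimum total 15). Adjusted p-values are Benjamini-Hochberg over 13759 genes, threshold 0.05. Standard errors come from the model's weights and quasi-dispersion. Bounds against 0 use 3 counts pooled over a genotype's libraries and cover counting error only, whereas standard errors also cover the variation among libraries. At these depths 1 CPM is 20.6 to 31.7 counts. The test was checked on simulated counts. Full values are given for the 3 smallest p-values per role, for changes of at least 2-fold and for Tfeb, Tfe3 and Mitf, and for up to 3 genes per related list. Other members are given briefly. Members and lists were chosen with earlier results of these data known, so no set test was run.

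Alternatives were DESeq2 1.42.0 size factors, upper-quartile or library-size scaling, no filter or 1 CPM in 3 libraries, limma 3.58.1 voom, DESeq2's own Wald test, a replicate term, protein-coding genes, an adjusted p of 0.01, longest transcript as length, and each library left out. The legacy edgeR fit and leaving out chromosomes X, Y and 5 and mitochondrial genes were chosen after seeing the data.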

Additional observations from a re-analysis of the deposited data

How the results depend on the processing

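Of 33 called members, 28 kept their call and direction under every alternative that gave a value, and the exceptions were Atp6v1e1, Atp6v1g1, Ctsa, Lamp2 and Npc2. Members higher and lower in the knock-out numbered 21 to 24 and 8 to 11 with any library left out, and 20 and 9 with chromosomes X, Y, 5 and the mitochondrion left out. The median log2 fold change was 0.18 with upper-quartile scaling, 0.18 without a filter and 0.19 to 0.27 with a library left out. With the replicate number as a block, 22 members were higher and 8 lower. Under the block 0 membrane proteins and 1 of the soluble hydrolases and activators were lower, because Lamp2 (adjusted p = 0.059) and Npc2 (0.061) no longer passed, and Atp6v1e1 was also lost (0.051). The numbers share no stated origin, and same-numbered libraries did not deviate together (correlations of 0.11, -0.11 and -0.19). At an adjusted p of 0.01 the same counts were 0 and 1, and with a library left out 0 to 1 and 1 to 2. With those chromosomes left out, 0 membrane proteins were lower and 1 of the factors with Sqstm1 was higher, since Lamp2 and Tfe3 are X-linked. Directions turned only for members that did not pass. These were Ctsh (-0.011), Cd63 (-0.0029) and Man2b1 (-0.030) with upper-quartile scaling and Atp6v0c with the DESeq2 Wald test (0.0078) and the legacy fit (0.011). With a library left out they were Man2b1 (-0.066 to 0.081), Gla (-0.12 to 0.088), Atp6v0c (-0.24 to 0.18), Cd63 (-0.038 to 0.15) and Ctso (-0.011 to 0.47). With the longest transcript as length, the share of Ctsz among cathepsins differed by -10.6 percentage points, against -12.6 with all exons. The causes were not tested. Depth limits Ctss, Atp6v1b1, Mitf and the members at 0.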
